A study of Mus musculus with 12 samples.

Results

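The glycolysis and hypoxia genes were a list of 41 genes. It held glucose and lactate transporters, enzymes of glycolysis and of the routes that branch from it, proteins that sense oxygen, and genes that low oxygen induces. It also held glutamine synthetase (Glul), which lies outside those routes. The list was set by gene symbol. For each gene the probe set with the highest mean log2 signal over the 12 arrays stood for the gene. Of the 41 genes, 36 had a probe set annotated to that gene alone and were tested, out of 12393 such genes on the array. Gpi1, Eno1 and G6pdx were not analysed here. Every probe set of Gapdh either lists several genes or is a control of the array, and the 3 probe sets of Bnip3l also list its pseudogene, so these genes are described without a test.

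The arrays measured RNA of primary mouse bone marrow cells sorted as Sca-1+ Lin- GFP+, a fraction enriched for hematopoietic stem and progenitor cells. The 4 groups of 3 arrays each carried a retrovirus with ND13, NA10 or ND13(N51S), or the empty GFP virus (MIG), which was the control. ND13 and NA10 are fusions of the nucleoporin NUP98 with the homeobox proteins HOXD13 and HOXA10, and ND13(N51S) is ND13 with a homeodomain that does not bind DNA. The study asked which expression changes follow from the active fusions and not from the mutant. All groups shared the same handling: donors were (C57Bl/6Ly-Pep3b×C3H/HeJ) F1 mice older than 12 weeks, treated 4 days ahead of marrow harvest with 150 mg/kg of 5-fluorouracil. Marrow was prestimulated for 48 hours with interleukin-6, interleukin-3 and stem cell factor, kept for 2 days on irradiated GP+E86 virus producer cells, and cultured for 24 hours more before the sort. The vectors are retroviral, with the transgene and GFP on 1 transcript of the viral promoter, so each array holds a mixed population of transduced cells after short expression at viral levels. How many animals were pooled for an array is not given in the sources used here. The RNA was amplified in a pair of rounds before hybridization.

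Glycolysis splits glucose into pyruvate in the cytosol, and lactate dehydrogenase can turn pyruvate into lactate, which leaves the cell through monocarboxylate transporters. When oxygen is present, prolyl hydroxylases mark the transcription factor subunit HIF-1α for destruction through the VHL protein. When oxygen is low, HIF-1α persists, and the HIF-1 complex activates genes of glucose uptake, glycolysis, vessel growth and mitochondrial turnover through short promoter elements. Hematopoietic stem cells are known for a reliance on glycolysis in the bone marrow.

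Of the 36 genes, 33 lay above background on all 12 arrays, where background was set on each array at the 95th percentile of its 27 bacterial controls (28.5 to 69.8). Slc16a3 was above it on 9 arrays, Eno2 on 2 and P4ha2 on 0. On single arrays 14446 to 17695 of the 22626 probe sets tested were above it. Being above background thus does not by itself identify a cell type. All 8 measured stem and progenitor markers (Kit, Cd34, Ptprc, Spi1, Gata2, Tal1, Runx1 and Lmo2) were above background on every array. Also above it on every array were 6 of 8 macrophage, 4 of 5 megakaryocyte, 5 of 7 mast cell, 8 of 9 neutrophil and 6 of 12 fibroblast markers. The same held for 2 of 5 erythroid, 1 of 6 B cell and 0 of 5 T cell markers, and Alas2 (erythroid), Pax5 and Ebf1 (B cell) and Cd3d and Cd4 (T cell) were above it on none. A pair of arrays stood in doubt. The deposited record of GFP control replicate 1 describes another cell fraction than its label, which was kept, and ND13(N51S) replicate 2 had an uneven coverage of transcripts, described with Gapdh. The counts, the medians of the list and the differences that met the weaker threshold described below were also examined without these arrays. Other single values, and those of the pathway genes outside the list, rest on all 12 arrays.

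No gene of the list passed the adjusted test in any of the 5 comparisons, and the differences that stood out were in single genes. Hk2, Aldoc, Glul and Vegfa were higher with ND13 and with NA10 than in the GFP control on every array, Bhlhe40 was higher in mean with all 3 constructs, Ldhb was lowest with ND13, and Ndrg1 was highest with ND13(N51S) in the probe set used, a direction that turned under 2 other probe set rules. A gene was called at an adjusted p < 0.05 (limma, all 22626 probe sets) and a change of at least 1.5-fold, and this gave 0 of 36 genes in each comparison, against 0.0884% of all probe sets in ND13, 0.0133% in NA10 and 0% in ND13(N51S) against the GFP control, and 0.0133% for ND13 and 0.00884% for NA10 against ND13(N51S). The lowest adjusted p among the genes was 0.443, 0.442, 0.445, 0.212 and 0.415 in the same order. With the replicate number as a block it was 0.126, 0.241, 0.208, 0.0919 and 0.243, again with 0 genes called, against 0.296%, 0.0398%, 0.0265%, 0.0796% and 0.0442% of all probe sets, and the methods' t-test after adjustment also called 0. At an unadjusted p < 0.05 of the limma fit lay 7, 5, 4, 4 and 3 of the 36 genes, against 5.73%, 4.41%, 7.65%, 7.87% and 8.6% of all probe sets. The test across all 4 groups at once (limma's moderated F) called 0 genes as well, against 0.0442% of all probe sets, with a lowest adjusted p of 0.369 and 5 genes at an unadjusted p < 0.05, against 6.91% of all probe sets.

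A weaker threshold, that of the study, asks for an unadjusted p < 0.05 and 1.5-fold, and 8 of the 36 genes met it in at least 1 comparison, against 18.6% of all probe sets. With ND13 against the GFP control 4 genes were higher (Aldoc, Vegfa, Bhlhe40 and Glul) and 0 lower, where 3.43% of all probe sets were higher and 1.5% lower. With NA10 the same counts were 4 (Hk2, Aldoc, Vegfa and Glul; 5 with the replicate block, which added Bhlhe40) and 0, against 2.51% and 1.52%. With ND13(N51S) they were 3 (P4ha2, Ndrg1 and Bhlhe40) and 0, against 4.37% and 2.48%. Without GFP control replicate 1 or without ND13(N51S) replicate 2 the count for ND13(N51S) fell to 1, and without its replicate 1 it was 6. With the methods' t-test on the MAS5 signals, Bhlhe40 missed the threshold with ND13 and ND13(N51S), Glul with NA10 and P4ha2 with ND13(N51S). These 3 comparisons share the same control arrays. Aldoc and Glul are also among the genes that the study, from the same arrays, lists as changed by both fusions and not by the mutant. The list of genes was chosen with earlier results of these data known, so the counts are a description only.

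As a whole the list was displaced little. Against the GFP control, the median log2 fold change over the 36 genes was 0.12 in ND13, 0.14 in NA10 and 0.11 in the mutant ND13(N51S), beside 0.00, -0.01 and 0.07 over all probe sets, and 23, 23 and 22 of the 36 genes had a positive value. Relative to the GFP mean, the median displacement of the genes was -0.09, -0.06 and 0.10 on the 3 GFP control arrays, 0.02, 0.11 and 0.38 on those of ND13, -0.04, 0.19 and 0.21 on those of NA10 and -0.08, 0.28 and 0.23 on those of ND13(N51S), in the order of replicates 1, 2 and 3. The 4 groups overlapped, and the replicate arrays of a group differed with an SD of 0.16, which was more than any of the medians. Centring each array on its median gave 0.05, 0.11 and 0.00, and without both arrays in doubt the medians were 0.02, 0.03 and 0.03.

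**Figure D1:**
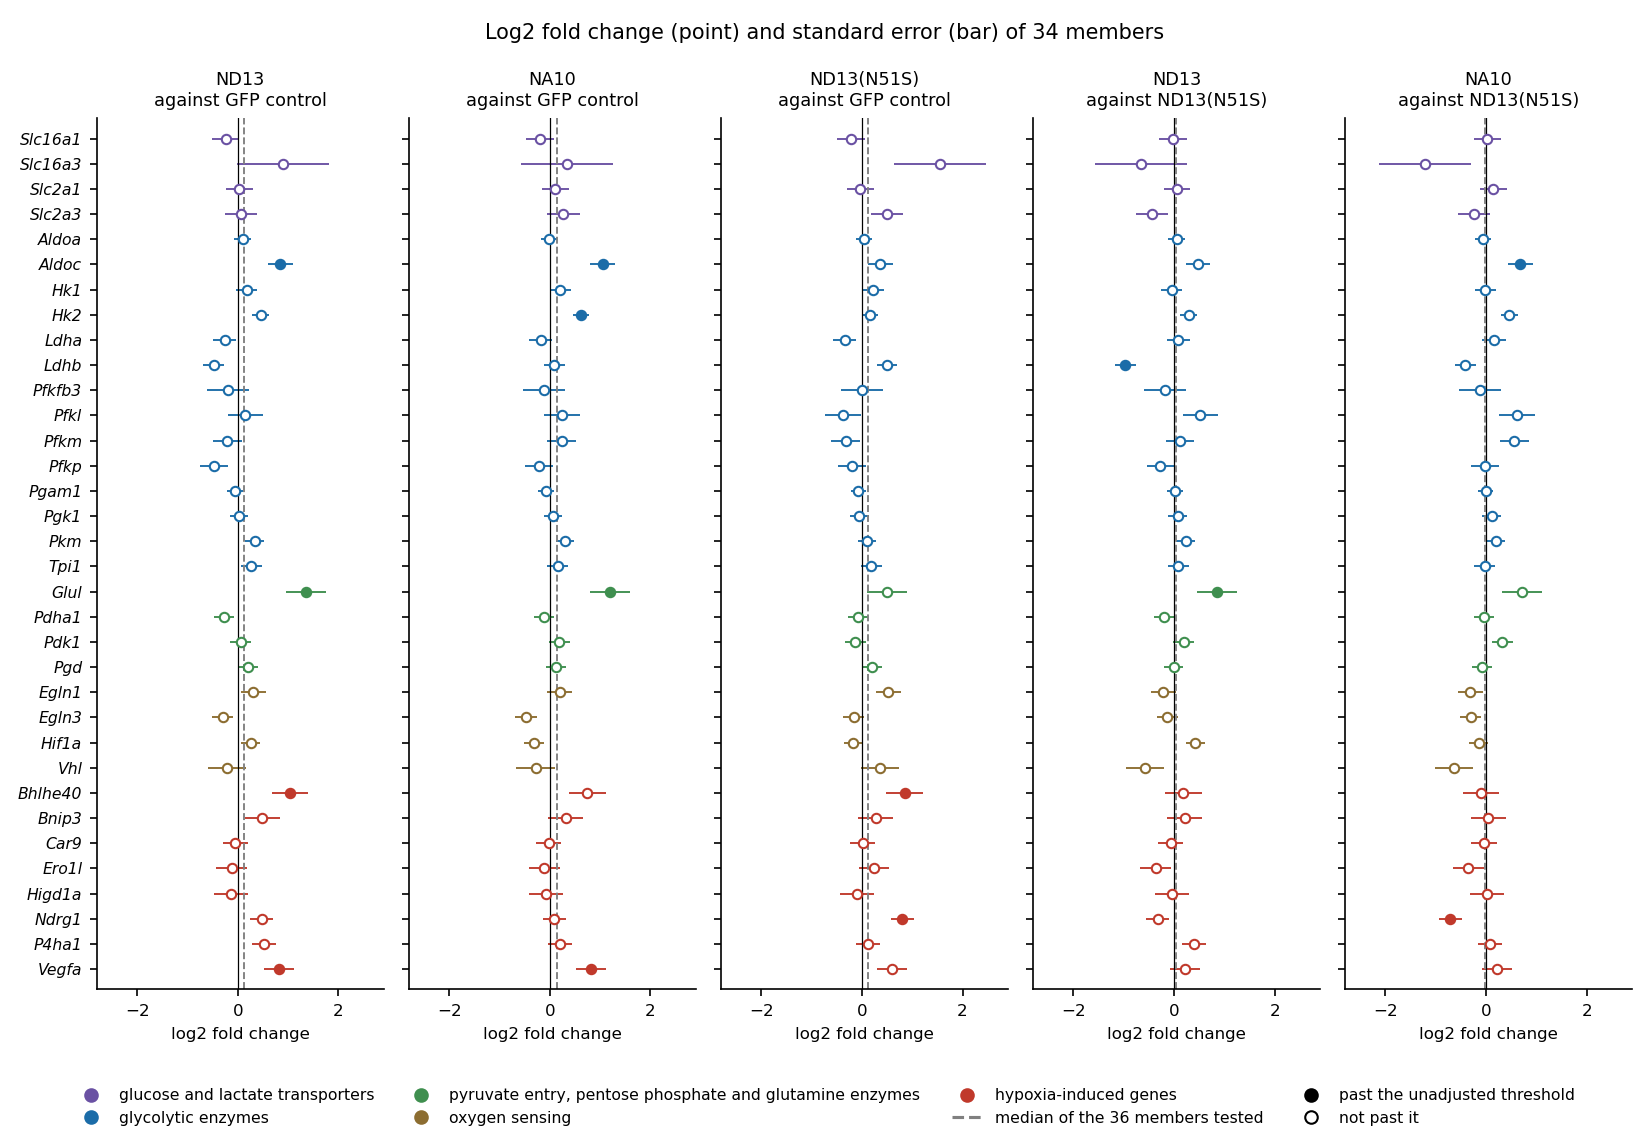
Log2 fold change (horizontal axis, points) with its standard error (bars) for 34 of the 36 genes, 1 panel for each comparison; colours give the role of the gene, filled points are past the unadjusted threshold, and the dashed line is the median of the 36 genes. P4ha2 and Eno2 are left out because they lay at background on nearly all arrays. Most points lie near 0, and the filled points are Hk2, Aldoc, Ldhb, Glul, Bhlhe40, Ndrg1 and Vegfa.

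Among the transporters no gene met the weaker threshold in any comparison. Slc2a1, the ubiquitous glucose transporter GLUT1, had signals of 998, 715 and 644 in the GFP control, 972, 939 and 531 in ND13, 888, 831 and 776 in NA10 and 650.1, 679 and 971 in ND13(N51S). The groups overlapped throughout, and its log2 fold change (± SE) against the GFP control was 0.03 ± 0.27 with ND13, with a 95% interval of -0.55 to 0.60. Slc2a3, the high-affinity glucose transporter GLUT3, had mean signals of 2084 ± 619 in the GFP control, 2158 ± 487 in ND13, 2459 ± 435 in NA10 and 3041 ± 1162 in ND13(N51S) (SD, n = 3). Slc16a1, the lactate and pyruvate carrier MCT1, ranged from 2099 ± 493 in ND13 to 2434 ± 205 in the GFP control. Slc16a3, the lactate exporter MCT4, had low signals of 11, 61.3 and 68.5 in the GFP control, 107, 28.2 and 98 in ND13, 11.1, 128 and 65 in NA10 and 124, 68.5 and 136 in ND13(N51S). Replicate 1 of the GFP control, replicate 2 of ND13 and replicate 1 of NA10 were below background, and the interval of the ND13(N51S) value, -0.41 to 3.51 on the log2 scale, was wide.

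Hexokinase catalyses the first step of glycolysis, and Hk2 is its inducible form. Hk2 had signals of 2632, 2315 and 2557 in the GFP control, 3347, 3533 and 3409.7 in ND13, 4231, 3800.3 and 3511 in NA10 and 2544, 3522 and 2433 in ND13(N51S). Every ND13 and NA10 array was above every GFP control array, whereas ND13(N51S) lay among the GFP control except for its replicate 2, the array with uneven coverage. The log2 fold change against the GFP control was 0.46 ± 0.17 with ND13 (adjusted p = 0.707 by limma), which is under 1.5-fold, and 0.62 ± 0.17 with NA10 (adjusted p = 0.713). With ND13(N51S) it was 0.16 ± 0.17, and NA10 was above ND13(N51S) by 0.46 ± 0.17 (adjusted p = 0.48). Without GFP control replicate 2 or NA10 replicate 1 the NA10 difference of Hk2 was under the threshold. Hk1, the hexokinase of most tissues, had means of 1299 ± 333, 1439 ± 148, 1468 ± 177 and 1481 ± 17 (SD, n = 3) in the same order of groups.

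Aldoc encodes aldolase C, 1 of the enzymes that split fructose bisphosphate. Its signals were 199, 171 and 261 in the GFP control, 414, 388 and 322 in ND13, 350.5, 448 and 505 in NA10 and 308, 219.6 and 283 in ND13(N51S). All ND13 and NA10 arrays were above all GFP control arrays and above all ND13(N51S) arrays, and ND13(N51S) overlapped the GFP control. Aldoc had the largest log2 fold change of the glycolytic enzymes that lay above background, 0.85 ± 0.25 with ND13 (adjusted p = 0.443 by limma) and 1.05 ± 0.25 with NA10 (adjusted p = 0.442), with 0.37 ± 0.25 for ND13(N51S). Against ND13(N51S) it was 0.48 ± 0.25 with ND13, not past the threshold, and 0.68 ± 0.25 with NA10 (adjusted p = 0.477). In the test across the 4 groups Aldoc had the lowest p of the list (adjusted p = 0.369 by limma). A second probe set of Aldoc was above background on 1 of 12 arrays and gave no usable value. Aldoa, the aldolase of most tissues, had means of 7832 ± 519.9, 8461 ± 1646, 7787 ± 1207 and 8100.1 ± 1068 (SD, n = 3).

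No other enzyme between glucose and pyruvate met the threshold in any comparison. Pfkl, a subunit of phosphofructokinase, had signals of 2364, 3790.1 and 3585 in the GFP control, 2848, 4489 and 3455 in ND13, 2754, 4655 and 4190.2 in NA10 and 3245, 1259.5 and 3617 in ND13(N51S). Its lowest value was ND13(N51S) replicate 2, and the other arrays overlapped. Pfkp, another subunit of the same enzyme, had signals of 1412, 1416 and 1436 in the GFP control, 746, 1078 and 1344 in ND13, 830.2, 1417 and 1547 in NA10 and 1001, 1261 and 1508 in ND13(N51S). All ND13 arrays lay below the narrow range of the GFP control, and the log2 fold change was -0.47 ± 0.27 (adjusted p = 0.968 by limma), not past the threshold. Pkm, pyruvate kinase, had signals of 4444, 4442 and 5899.5 in the GFP control, 5689.6, 6150.02 and 6658 in ND13, 5814, 6288 and 5926 in NA10 and 5914, 3894 and 6238 in ND13(N51S). ND13 and NA10 were higher in mean than the GFP control by 0.33 ± 0.18 and 0.30 ± 0.18 log2 units, and both overlapped its highest array. Tpi1, Pgk1 and Pgam1 (triosephosphate isomerase, phosphoglycerate kinase and phosphoglycerate mutase) differed from the GFP control by log2 values of 0.27, 0.02 and -0.05 in ND13, then 0.15, 0.06 and -0.08 in NA10, and 0.18, -0.05 and -0.07 in the mutant. Pfkm, the muscle-type phosphofructokinase subunit, and Pfkfb3, which makes the activator of that enzyme, did not meet the threshold in any comparison. Eno2, the neuronal enolase, was at background.

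Lactate dehydrogenase has a pair of main subunits. Ldha, the subunit that favours lactate production, had signals of 12292, 9696 and 13619 in the GFP control, 8866, 8337 and 12916 in ND13, 9828, 9718 and 11684 in NA10 and 10664, 6394 and 11785 in ND13(N51S). Its log2 fold changes against the GFP control were -0.26 ± 0.23, -0.18 ± 0.23 and -0.34 ± 0.23, with overlapping arrays, and for ND13 a 95% interval of -0.75 to 0.24. Ldhb, the subunit that favours lactate use, had signals of 455, 661 and 638 in the GFP control, 445, 397 and 404 in ND13, 585, 598 and 659 in NA10 and 836, 933 and 694 in ND13(N51S). All ND13 arrays were below those of every other group, and all ND13(N51S) arrays were above those of every other group. Against the GFP control Ldhb was lower with ND13 by a log2 value of -0.48 ± 0.21 (adjusted p = 0.821 by limma) and higher with ND13(N51S) by 0.50 ± 0.21 (adjusted p = 0.637), both under 1.5-fold, and with NA10 the value was 0.09 ± 0.21. Between ND13 and ND13(N51S) the log2 fold change was -0.97 ± 0.21 (adjusted p = 0.212 by limma, 0.0919 with the replicate block), the lowest p of any tested gene of the list in the 5 comparisons. This difference was past the unadjusted threshold under every alternative processing tried. The other 3 probe sets of Ldhb gave -1.20, -0.88 and -0.81 for the same comparison.

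**Figure D2:**
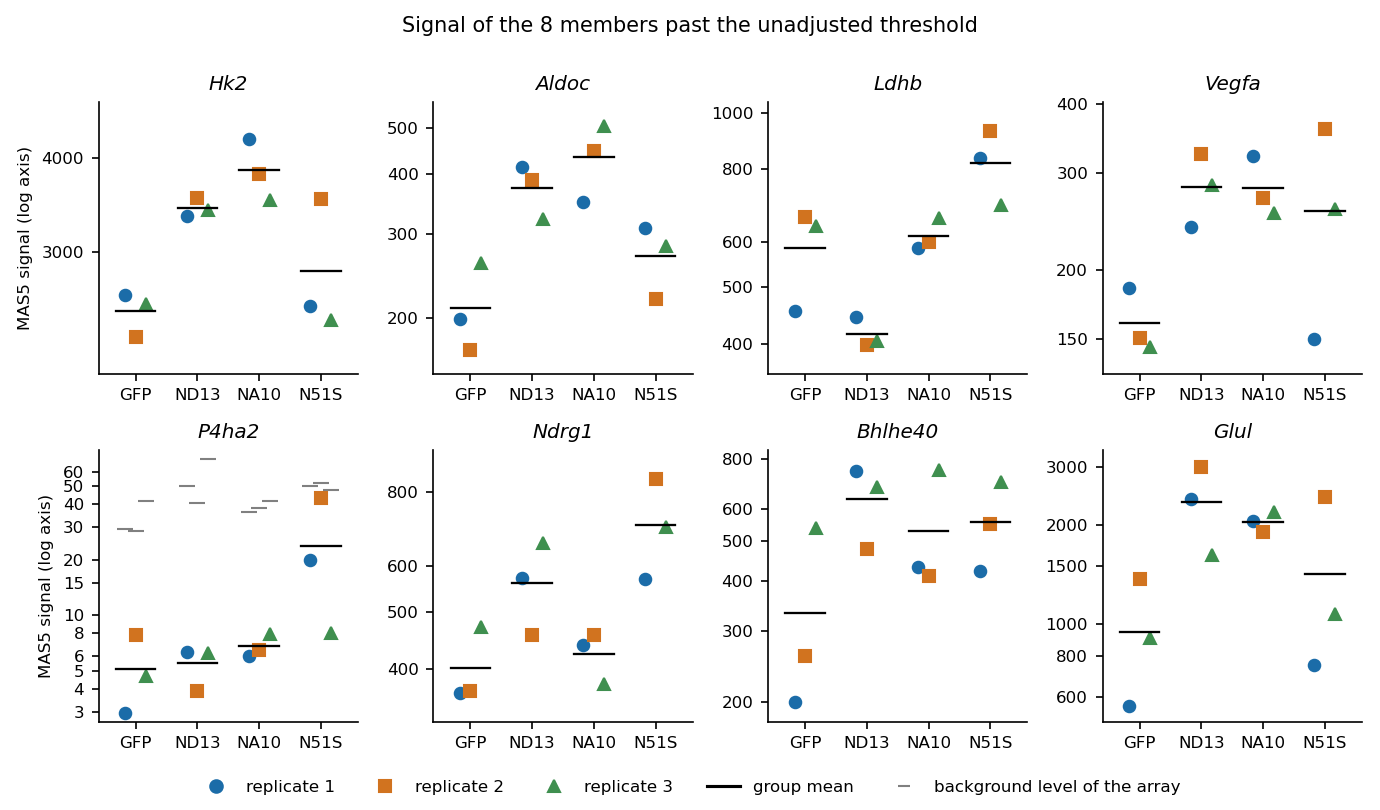
MAS5 signal (vertical log axis) in each of the 12 arrays for the 8 genes past the unadjusted threshold in at least 1 comparison; symbols give the replicate, black lines the group mean, and grey dashes in the P4ha2 panel the background level of each array. Hk2, Aldoc, Vegfa and Glul are higher on all ND13 and NA10 arrays than on all GFP control arrays, and every P4ha2 value lies below background.

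Gapdh, glyceraldehyde-3-phosphate dehydrogenase, is present as control probe sets against the 3′ end, the middle and the 5′ end of its transcript. At the 3′ end its mean signal was 12014 ± 926 in the GFP control, 12279 ± 1641 in ND13, 11926 ± 548 in NA10 and 10781 ± 2595 in ND13(N51S) (SD, n = 3). ND13(N51S) replicate 2 read 7813 at the 3′ end, 960 in the middle and 160 at the 5′ end, where the other 11 arrays read 10649 to 13931, 9096 to 13030 and 4404 to 6648. Its ratio of 3′ to 5′ signal was 48.9, beside 1.90 to 2.71 on the other arrays. Of the 36 genes, 5 had their lowest signal of the 12 arrays on it (Ldha, Pdk1, Pfkl, Pfkm and Pkm) and 10 their highest (Car9, Egln1, Higd1a, Ldhb, Ndrg1, P4ha2, Pfkfb3, Pgd, Slc2a3 and Vegfa). The part of the uneven coverage in these values was not tested.

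**Figure D3:**
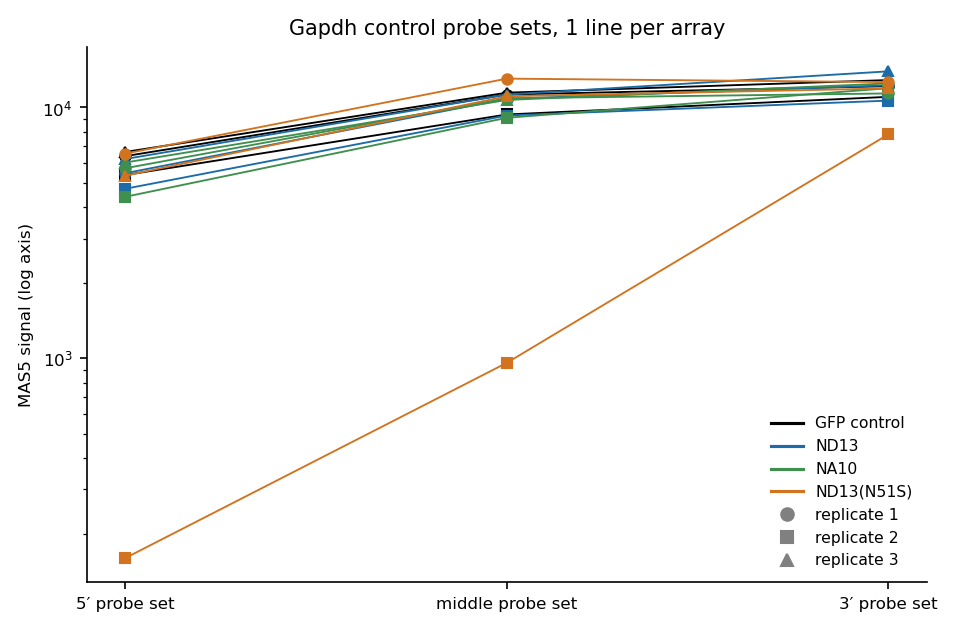
MAS5 signal (vertical log axis) of the Gapdh control probe sets at the 5′ end, the middle and the 3′ end of the transcript, 1 line for each of the 12 arrays; colours give the group and symbols the replicate. A single array, ND13(N51S) replicate 2, falls to 160 at the 5′ end, and the other 11 stay between 4404 and 6648 there.

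At the entry of pyruvate into the mitochondrion every construct overlapped the GFP control. Pdk1, the kinase that switches off pyruvate dehydrogenase, had signals of 1501, 1346 and 2062 in the GFP control, 1434, 1555 and 2107 in ND13, 1759, 1913 and 1818 in NA10 and 1526, 1278 and 1617 in ND13(N51S). NA10 lay above ND13(N51S) on all arrays, by 0.32 ± 0.21 log2 units (adjusted p = 0.678 by limma). Pdha1, a subunit of pyruvate dehydrogenase, had signals of 3562, 3434 and 4632 in the GFP control, 2705, 2988 and 3936 in ND13, 3369.6, 3130.2 and 4221 in NA10 and 3426, 3220.03 and 4329 in ND13(N51S). Within each group replicate 3 was the highest array, and the differences between groups were smaller, -0.28 ± 0.20 with ND13 and -0.12 ± 0.20 with NA10 on the log2 scale. Pgd, an enzyme of the pentose phosphate route, differed from the GFP control by 0.20 in ND13, 0.12 in NA10, and 0.21 in the mutant on the log2 scale.

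Glul, glutamine synthetase, had the largest difference from the GFP control among the genes above background on all 12 arrays. Its signals were 563, 1367 and 905 in the GFP control, 2404, 3009.8 and 1620.3 in ND13, 2048, 1896 and 2188 in NA10 and 751, 2426 and 1074 in ND13(N51S). All ND13 and NA10 arrays were above all GFP control arrays, and the ND13(N51S) arrays ranged from near the lowest GFP control value to the level of ND13. The log2 fold change was 1.36 ± 0.40 with ND13 (adjusted p = 0.463 by limma, 0.126 with the replicate block) and 1.20 ± 0.40 with NA10 (adjusted p = 0.89), and 0.50 ± 0.40 with ND13(N51S). ND13 was above ND13(N51S) by 0.86 ± 0.40 (adjusted p = 0.634 by limma) and in 3 of 3 replicate numbers, a difference that missed the unadjusted threshold in 13 of 24 alternatives. The highest ND13(N51S) value was again replicate 2, and without GFP control replicate 1, the lowest control array, the NA10 difference missed the unadjusted threshold. A second probe set of Glul gave 0.83 in ND13, then 0.77 in NA10 and -0.06 in the mutant. In sorted bulk RNA a change in the share of a cell type and a change in RNA per cell cannot be told apart. The summed signal of the 8 macrophage markers was 2382 to 4448 in the GFP control, 5218 to 7587 in ND13, 4057 to 4693 in NA10 and 4980 to 10321 in ND13(N51S), and that of 5 megakaryocyte markers 2845 to 4822, 5405 to 6902, 6527 to 7036 and 5391 to 8795. In the same order, the 7 mast cell markers summed to 2306 to 4161, 3050 to 3855, 3129 to 5454 and 4806 to 8384. The 5 erythroid markers summed to 347 to 427, 309 to 400, 198 to 412 and 497 to 558. Both sums were higher in ND13(N51S) than in the GFP control without overlap. The 12 fibroblast markers, listed for the virus producer cells, summed to 1615 to 2185, 1224 to 1770, 1298 to 1900 and 1997 to 2789. All ND13 and NA10 arrays were thus below all ND13(N51S) arrays in the fibroblast sum. The sums of the 9 neutrophil markers overlapped between all groups. The part of these cell types in the values of Glul and of the other genes was not tested.

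The promoters of Hk2, Aldoc and Glul are shown because these enzyme genes were high with both active fusions, as was Vegfa, whose promoter is not shown. That of Bnip3 is shown because it had the lowest p among replicate numbers, although Pfkfb3, Higd1a and Pgk1 had a larger share of their variance there. Each run is the 250 bases before the first listed start of the gene, written 5′ to 3′ on the strand of the gene, from RefSeq on GRCm38.p6. Capitals mark ACGTG or GCGTG on either strand, the letters at the core of the element that HIF-1 binds.
Hk2, chr6:82774455-82774704, minus strand: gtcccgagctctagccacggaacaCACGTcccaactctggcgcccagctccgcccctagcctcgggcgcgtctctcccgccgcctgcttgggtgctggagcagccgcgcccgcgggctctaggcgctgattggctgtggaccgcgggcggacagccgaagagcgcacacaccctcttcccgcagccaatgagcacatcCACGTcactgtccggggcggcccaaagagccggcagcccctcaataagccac
Aldoc, chr11:78322823-78323072, plus strand: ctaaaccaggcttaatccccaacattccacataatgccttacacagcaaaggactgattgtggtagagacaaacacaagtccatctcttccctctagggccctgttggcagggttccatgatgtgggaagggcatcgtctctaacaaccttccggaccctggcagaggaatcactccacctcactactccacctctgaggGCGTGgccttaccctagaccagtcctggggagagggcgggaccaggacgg
Glul, chr1:153899679-153899928, plus strand: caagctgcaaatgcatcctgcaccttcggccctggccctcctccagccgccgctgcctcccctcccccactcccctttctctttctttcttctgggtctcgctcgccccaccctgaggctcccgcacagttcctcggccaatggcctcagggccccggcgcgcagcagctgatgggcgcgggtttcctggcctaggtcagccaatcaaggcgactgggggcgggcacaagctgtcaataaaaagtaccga
Bnip3, chr7:138909507-138909756, minus strand: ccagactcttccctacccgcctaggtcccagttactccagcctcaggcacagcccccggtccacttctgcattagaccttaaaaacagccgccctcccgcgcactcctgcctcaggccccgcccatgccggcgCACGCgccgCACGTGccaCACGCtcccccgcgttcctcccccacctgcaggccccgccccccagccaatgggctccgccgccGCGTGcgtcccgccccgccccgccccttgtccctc

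Hk2 had 2 such matches, 226 and 52 bases before the start, Aldoc had 1 at 50 bases, Glul had 0, and Bnip3 had 5, of which a pair overlap as CACGTG. Promoters of 33 of the 36 genes were in the reference table. In the windows of 250 bases, 25 of the 33 genes (75.8%) held ACGTG or GCGTG, beside 38.6% of all 27025 promoters, ACGTG alone was in 51.5% beside 16.6%, and GCGTG alone in 48.5% beside 28.2%. The E-box CACGTG, which contains ACGTG, was in 15.2% beside 6.05%. TGATTNAT, a joint site of Pbx and Hox proteins, was in 0 of the 33 beside 2.99%. Ldha held 5 matches and Vegfa and Glul held 0. The list includes genes chosen because low oxygen induces them, and the promoters beside it were not matched for base composition or expression. The part of these letters in the expression values was not tested.

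With the probe set used for each gene, the genes that sense oxygen did not meet the threshold in any comparison. Hif1a, the regulated subunit of HIF-1, had signals of 2477, 1683 and 2277 in the GFP control, 2484, 2310.1 and 2819 in ND13, 1909, 1686 and 1529.9 in NA10 and 1588, 2127 and 1974 in ND13(N51S). The groups overlapped the GFP control, and the log2 fold change was 0.26 ± 0.19 in ND13, -0.32 ± 0.19 in NA10, and -0.17 ± 0.19 in the homeodomain mutant. All ND13 arrays were above all ND13(N51S) arrays, by 0.43 ± 0.19 (adjusted p = 0.626 by limma). The other 3 probe sets of Hif1a gave 0.66, -0.19 and 0.90 for ND13 against the GFP control and 0.71, 0.87 and 2.70 against ND13(N51S), and the first of them alone was above background on all arrays and met the unadjusted threshold for ND13 against the GFP control. The array measures the transcript, whereas HIF-1α is controlled chiefly as a protein.

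Egln1, the main prolyl hydroxylase of HIF-1α, had signals of 546, 611 and 489.9 in the GFP control, 659, 716 and 655 in ND13, 683, 571 and 637 in NA10 and 579, 1197 and 695 in ND13(N51S). In this probe set all ND13 arrays were above the GFP control, by 0.31 ± 0.25, and the highest value of all was ND13(N51S) replicate 2. The other probe set of Egln1, also above background on all 12 arrays, ran the other way for ND13, with a log2 fold change of -0.12. For NA10 that probe set gave -0.0008, and for the mutant 0.28. Egln3, a hydroxylase that low oxygen induces, had signals of 1860.1, 1387 and 1224 in the GFP control, 1243, 1112 and 1223 in ND13, 1098, 1248 and 859.6 in NA10 and 1153, 1497 and 1298 in ND13(N51S). NA10 was lower than the GFP control in 3 of 3 replicate numbers, by a log2 value of -0.47 ± 0.21, under 1.5-fold and with overlapping arrays. A second probe set of Egln3, above background on all 12 arrays, gave -0.27 in ND13, -0.25 in NA10 and 0.60 in the mutant. For the mutant the probe set used gave -0.17. Vhl, which recognises hydroxylated HIF-1α, had signals of 74.3, 80.5 and 155 in the GFP control, 68.7, 93.9 and 91.3 in ND13, 96.7, 57.8 and 91.9 in NA10 and 142, 95.3 and 144 in ND13(N51S). All ND13 arrays were below all ND13(N51S) arrays, with a log2 fold change of -0.58 ± 0.38 and an interval of -1.39 to 0.24.

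The genes that low oxygen induces had the highest median of the 5 roles with ND13, 0.48 over 9 genes, and 0.21 with NA10 and 0.28 with ND13(N51S). This ND13 median is the value of a single gene, Ndrg1, in the probe set used. The 9 genes include P4ha2, which was below background on every array, and leave out Egln3, which was counted under oxygen sensing. Over the 15 glycolytic enzymes the medians were 0.10, 0.15 and 0.00. Over 40 other oxygen sensing and hypoxia genes, outside the list, they were -0.03, -0.02 and 0.22, with 19, 18 and 28 genes positive. Vegfa, the vascular endothelial growth factor, had signals of 186, 151 and 146 in the GFP control, 239.8, 325 and 285 in ND13, 322, 271 and 254 in NA10 and 150.2, 359 and 258 in ND13(N51S). All ND13 and NA10 arrays were above the GFP control, and the ND13(N51S) arrays ran from the level of the GFP control to the highest value of all, replicate 2. For Vegfa the log2 fold change was 0.82 ± 0.30 with ND13 (adjusted p = 0.713 by limma), 0.81 ± 0.30 with NA10 (adjusted p = 0.996) and 0.59 ± 0.30 with ND13(N51S). A second probe set gave 0.21, 0.74 and 0.41. Without GFP control replicate 3 neither the ND13 nor the NA10 difference of Vegfa passed the unadjusted threshold.

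Bhlhe40, a repressor that HIF-1 and growth signals induce, had signals of 200.3, 259.8 and 539 in the GFP control, 746, 478 and 680.4 in ND13, 431, 409.5 and 749 in NA10 and 423, 551 and 703 in ND13(N51S). The highest GFP control array, replicate 3, lay within the range of each construct, so no group was apart. Within each replicate number all 3 constructs were above the GFP control, and the log2 fold changes were 1.04 ± 0.36 with ND13 (adjusted p = 0.675 by limma), 0.75 ± 0.36 with NA10, which missed the unadjusted threshold but passed it with the replicate block, and 0.85 ± 0.36 with ND13(N51S) (adjusted p = 0.637 by limma). Without GFP control replicate 1, the array of the doubtful record and the lowest in Bhlhe40, neither the ND13 nor the ND13(N51S) difference passed the threshold. The ND13(N51S) difference also missed it without GFP control replicate 2 and without ND13(N51S) replicate 2, the array with uneven coverage, or replicate 3. The ND13 difference missed it without ND13 replicate 1.

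Ndrg1, a gene of stress and differentiation that low oxygen induces, had signals of 364, 367 and 472 in the GFP control, 571, 456 and 654 in ND13, 441, 457 and 378 in NA10 and 569, 841 and 697 in ND13(N51S). All ND13(N51S) arrays were above all GFP control and all NA10 arrays. The log2 fold change was 0.80 ± 0.23 with ND13(N51S) (adjusted p = 0.445 by limma), 0.48 ± 0.23 with ND13 and 0.09 ± 0.23 with NA10, and NA10 against ND13(N51S) gave -0.71 ± 0.23 (adjusted p = 0.415). The other 4 probe sets of Ndrg1 disagreed, with -1.18, -0.13, -1.07 and 0.54 for ND13(N51S) against the GFP control. The direction for Ndrg1 therefore holds for the probe set used and turned when the gene's probe sets were averaged or when a probe set whose name carries no mark of shared probes was taken.

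The remaining induced genes were less apart. Car9, the membrane carbonic anhydrase, had signals of 210.4, 224 and 154 in the GFP control, 172, 203 and 188 in ND13, 205, 182 and 185 in NA10 and 178, 251 and 168 in ND13(N51S). The groups overlapped, and the log2 fold change with ND13 was -0.05 ± 0.25 with an interval of -0.59 to 0.49. P4ha1, a collagen prolyl hydroxylase subunit, was higher on all ND13 arrays (422, 575 and 490.2) than on the GFP control arrays (349.8, 358 and 317), by 0.53 ± 0.24 (adjusted p = 0.845 by limma), under 1.5-fold. Bnip3, which directs mitochondria to autophagy, had signals of 758, 775 and 1211 in the GFP control, 918, 1204 and 1781 in ND13, 774, 1115 and 1601 in NA10 and 702, 1177 and 1527 in ND13(N51S). Each construct overlapped the GFP control, and ND13 and NA10 gave 0.49 ± 0.35 and 0.32 ± 0.35. Ero1l (Ero1a in RefSeq), an oxidase of protein folding, and Higd1a, a small mitochondrial protein, did not meet the threshold in any comparison. P4ha2 met the unadjusted threshold with ND13(N51S), but its signals of 19.8, 43 and 8.02 there and 2.95 to 7.89 in the other groups were all below background, so no fold is given. The 3 probe sets of Bnip3l, the relative of Bnip3 in red cell maturation, had means of 1290.3, 803 and 187 in the GFP control, 1392, 888 and 219.5 in ND13, 1398, 1017 and 225 in NA10 and 1549, 1166 and 193 in ND13(N51S), with any signal of its pseudogene included.

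Against the homeodomain mutant the list had no common direction. For ND13 against ND13(N51S) the median log2 fold change was 0.03, beside -0.06 over all probe sets, with 19 of 36 genes positive. At the unadjusted threshold 1 gene was higher (Glul) and 2 were lower (Ldhb and P4ha2, the latter at background), against 3.2% and 3.78% of all probe sets. For NA10 against ND13(N51S) the median was -0.02, which turned to 0.06 with arrays centred on their median, beside -0.08 over all probe sets, with 16 genes positive, 1 gene higher (Aldoc; 2 with the replicate block) and 1 lower (Ndrg1), against 2.94% and 4.85%. Without ND13(N51S) replicate 2, neither Aldoc nor Ndrg1 passed in this comparison, although 2 other genes were then higher. Genes whose arrays did not overlap numbered 2 higher and 3 lower in each of these comparisons, against 4.28% and 8.04% of probe sets for ND13 and 4.3% and 9.4% for NA10. Against the GFP control, ND13 had 6 higher and 2 lower, NA10 had 4 and 0, and ND13(N51S) had 3 and 0, against 6.84% and 5.37%, 5.6% and 5.18%, and 8.5% and 3.45%. An exact permutation test of 3 arrays against 3 could not give a two-sided p under 0.1.

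By share of variance, 18 of the 36 genes (50%) differed more among the replicate numbers of the labels than among the constructs. For all probe sets this was 45.1%, and for those above the median signal 53.9%, so the list was near the level of the array. Arrays of the same number deviated together from their group means (r of 0.106 to 0.596 over probe sets above the median signal), and the study describes independent experiments. A test of the replicate number in the same fit (limma's moderated F, added after the data had been seen) called 8 of 36 genes, against 5.22% of all probe sets and 9.54% of those above the median signal, where 32 of the 36 genes lie. The 8 were Bnip3 (adjusted p = 0.00683), Slc2a3 (0.0109), Ero1l (0.0149), Higd1a (0.0164), Pfkfb3 (0.0226), Pgk1 (0.029), Pdha1 (0.031) and Ldha (0.0377). Without ND13(N51S) replicate 2 the count was 13, and without both arrays in doubt 14.

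The pattern differed from gene to gene. Bnip3 lay between 702 and 918 on the 4 arrays of number 1 and between 1211 and 1781 on those of number 3, without overlap. Pgk1 lay between 10327 and 11406 on number 1 and between 13140.0 and 15783 on number 3, and Ero1l between 1552 and 2134 and between 2838 and 3951. Slc2a3 was lowest on number 1 in all 4 groups. Higd1a ran the other way, with 2028 to 2504 on number 1 and 1199 to 1631 on number 3. Pdha1 and Ldha were highest on number 3 in all 4 groups. Pfkfb3 was 121 to 189.6 on number 1 and 281 to 350.3 on number 3. Hk2, Aldoc, Ndrg1 and Ldhb, all past the unadjusted threshold, had at most 4.21% of their variance among replicate numbers and at least 74.1% among constructs. That threshold itself selects for a large share among constructs. The other genes past it had 47.4% (Bhlhe40), 56.7% (Glul), 56.1% (Vegfa) and 63.4% (P4ha2) among constructs. Among replicate numbers these genes had 33.4%, 21.9%, 7.28% and 6.04%. Shares were not adjusted for 4 groups against 3 numbers. Over the 36 genes the median share of the variance was 23.1% among constructs and 28.7% among replicate numbers, beside 25.8% and 22.1% over all probe sets, and 22.5% and 35.7% over the 32 genes above the median signal, beside 24.7% and 29.3% over such probe sets. The labels do not say what a number stands for beyond the replicate, and what differed between the numbers was not tested.

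**Figure D4:**
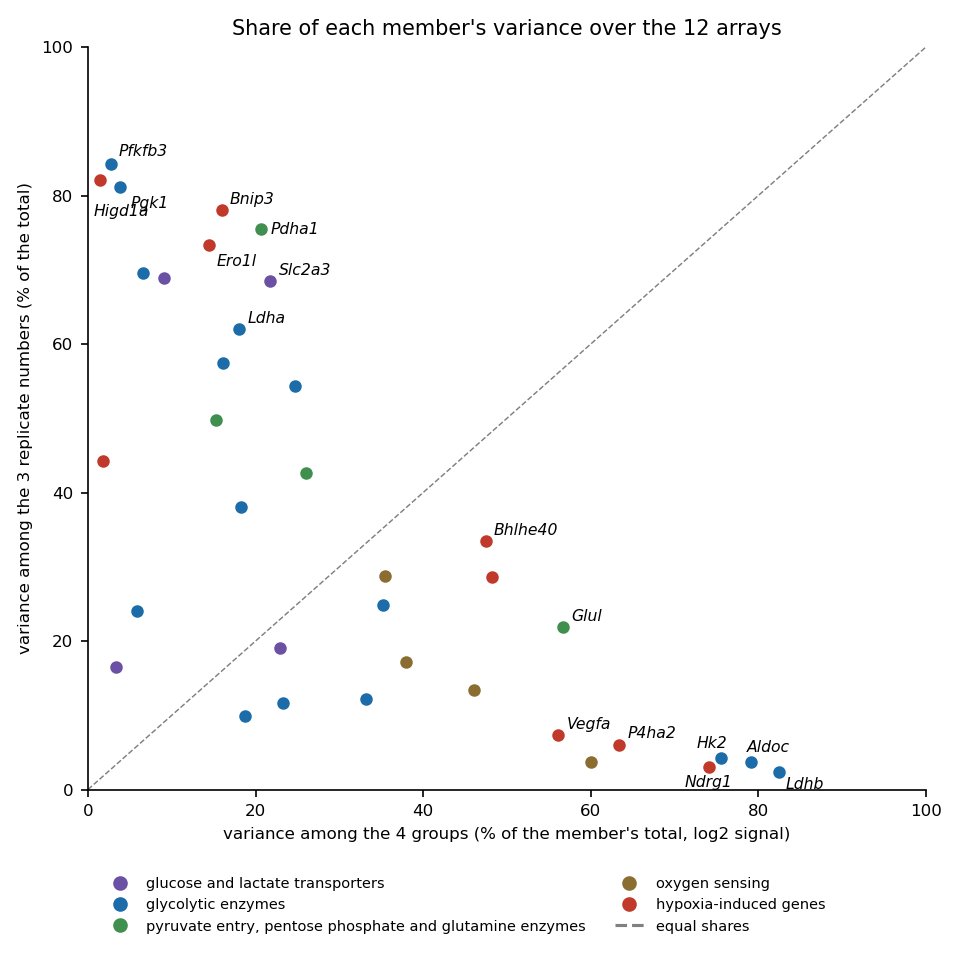
Percentage of each gene's variance of log2 signal over the 12 arrays that lies among the 4 groups (horizontal axis) and among the 3 replicate numbers (vertical axis); each point is 1 of the 36 genes, coloured by role, and the dashed line marks equal shares. Ldhb, Aldoc, Hk2 and Ndrg1 lie at the lower right, and Pfkfb3, Higd1a, Pgk1 and Bnip3 at the upper left, with Ldha at 62% among replicate numbers.

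**Figure D5:**
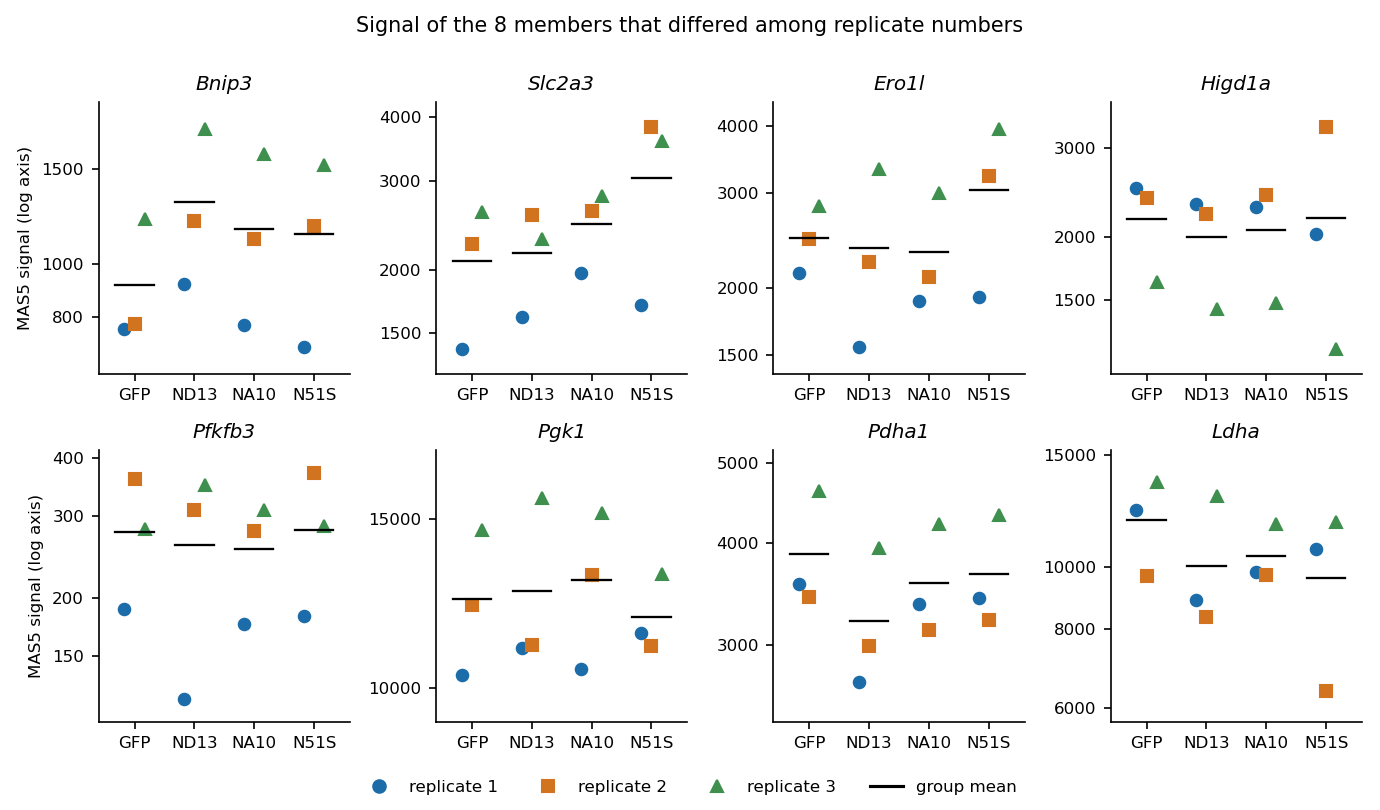
MAS5 signal (vertical log axis) in each of the 12 arrays for the 8 genes that differed among replicate numbers; symbols give the replicate and black lines the group mean. In Bnip3, Ero1l and Pgk1 the replicate 3 arrays are above the replicate 1 arrays in all 4 groups, and in Higd1a they are below.

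Other genes of the same pathways were taken from 3 lists that held 109 tested genes in all: 31 of further glycolysis and glycogen genes, 38 of pyruvate, pentose phosphate and citrate cycle genes, and 40 of further oxygen and hypoxia genes. None of the 109 was called after adjustment (limma), and 15 met the unadjusted threshold in at least 1 comparison, against 18.6% of all probe sets. The shares of all probe sets in the single comparisons are those given for the 36 genes. In the glycolysis list, ND13 had 1 gene above the GFP control and 1 below, NA10 had 1 and 0, and ND13(N51S) had 0 of either. The citrate cycle list had 0 higher in every case and 1, 1 and 2 lower, and the hypoxia list 3, 1 and 3 higher and 0 lower. Dld, a subunit shared by mitochondrial dehydrogenase complexes, was lower with all 3 constructs by log2 values of -0.65 ± 0.22, -0.59 ± 0.22 and -0.75 ± 0.22. Mxi1, an antagonist of Myc that low oxygen induces, was higher by 0.64 ± 0.27, 0.65 ± 0.27 and 0.80 ± 0.27. Ddit4, an inhibitor of mTOR signalling that low oxygen and stress induce, was higher with ND13 by 1.06 ± 0.34 and stood above ND13(N51S) by 1.48 ± 0.34 (adjusted p = 0.245, 0.0994 with the replicate block). Ccng2, a cyclin of growth arrest, was higher with ND13 by 0.64 ± 0.27 and with ND13(N51S) by 0.89 ± 0.27, and Siah1a, a ligase that acts on prolyl hydroxylases, with ND13(N51S) by 0.73 ± 0.22. Fbp1, the gluconeogenic fructose bisphosphatase, was lower with ND13 than with ND13(N51S) by a log2 value of -1.04 ± 0.31 and NA10 gave -0.77 ± 0.31. H6pd, the hexose phosphate dehydrogenase of the endoplasmic reticulum, gave -0.88 ± 0.29 and -0.85 ± 0.29 in the same comparisons. Against ND13(N51S) the counts higher and lower were 0 and 1 in the glycolysis list, 0 and 2 in the citrate cycle list and 1 and 3 in the hypoxia list for ND13, and 0 and 1, 1 and 2, and 0 and 3 for NA10. The other genes past the threshold were Slc16a7, Idh2, Pdk2, Kdr, Sdhc, Me1, Pdgfb and, at background on every array, Adm.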

How the data were processed

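MAS5 signals of 12 arrays were used, 3 for each of 4 groups taken from the sample titles. The values the authors deposited were intensity on a linear scale, 1 for each of the 22690 probe sets of an MOE430A array, with a trimmed mean of 500.2 on every array. MAS5 is named in the submitters' processing notes, and its version is not given in the sources used here. Their log2 was taken without further scaling, after a floor of 0.01 that 0 values reached. The 64 control probe sets were left out of the tests.

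Comparisons used limma 3.58.1 in R 4.3.3, lmFit and eBayes with trend and robust, in 1 fit of the 4 groups, with Benjamini-Hochberg adjustment over 22626 probe sets. Of these, 20380 listed 1 gene, 691 several and 1555 none. Group values are means ± SD of signals, and log2 fold changes are given ± SE. The arrays are described as biological triplicates, and their number limits the precision. Genes with values in every array were those past the unadjusted threshold in any comparison and key steps listed by role. The genes and lists were chosen with earlier results of these data known.

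Same-numbered arrays deviated together in all 18 pairs (r 0.106 to 0.596, median 0.364, probe sets above the median mean), and over all probe sets r was 0.031 to 0.156. Different numbers had r of -0.422 to 0.107 over probe sets above the median mean. The numbers, with the independent experiments the study describes, were taken as pairing only in an alternative fit with a replicate block. The main fit used the group alone, so its SE, intervals and p leave this pairing out. For Pfkp with ND13 against the GFP control, the unadjusted p by limma was 0.107 without the block and 0.0232 with it (adjusted p = 0.476). Alternatives were that block, a filter on dim probe sets, a pseudocount of 41.5, quantile normalization, median centring, plain eBayes, fits of 2 groups, the methods' t-test, other probe set rules, array weights and each array left out. The test was also run on simulated arrays with independent noise, no effect of replicate number and changes only in probe sets above the median signal. That run therefore cannot show how the test performs on these arrays. Promoter letters were searched with Python 3.11.15, and plots drawn with matplotlib 3.10.9. The GC-RMA values that the study describes were not used here.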

Additional observations from a re-analysis of the deposited data

How the results depend on the processing

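No gene of the list was called under any of the 24 alternatives. Of the 382 log2 values of 16 gene comparisons past the unadjusted threshold, 378 kept their direction and 4 turned, all of Ndrg1: with a probe set rule that avoids shared probes it was -0.13 for ND13(N51S) against the GFP control and 0.35 for NA10 against ND13(N51S), and with the mean over a gene's probe sets -0.21 and 0.23. Glul with ND13 and Ldhb between ND13 and ND13(N51S) passed the unadjusted threshold under all 24. Counts at that threshold were small and moved as follows, and the cause was not tested. With the mean over a gene's probe sets, 2 genes were higher with ND13 and 1 lower with ND13(N51S) than in the GFP control, and 3 were higher with ND13 and 3 with NA10 than with ND13(N51S). With the methods' t-test 1 gene was higher with ND13(N51S) than in the GFP control, and for ND13 against ND13(N51S) 0 were higher and 1 lower. For this comparison 0 were higher also with the dim filter, median centring, plain eBayes and the fit of 2 groups, and 1 was lower with the dim filter, the pseudocount and quantile normalization. For NA10 against ND13(N51S) 2 were higher with the replicate block and with median centring, 2 lower with plain eBayes, and 0 lower with the probe set rule. Without both arrays in doubt, 1 gene was lower with ND13 and 1 higher with ND13(N51S) than in the GFP control, 1 was lower for ND13 and 2 were higher and 0 lower for NA10 against ND13(N51S), and 14 genes differed among replicate numbers (13 without ND13(N51S) replicate 2).

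Leaving out 1 array at a time, genes higher and lower numbered 3 to 4 and 0 to 1 with ND13, 2 to 5 and 0 to 1 with NA10, and 1 to 6 and 0 with ND13(N51S) against the GFP control, and 0 to 1 and 1 to 3 with ND13 and 0 to 3 and 0 to 2 with NA10 against ND13(N51S). The counts with NA10 fell to 2 without its replicate 1, and Glul left the comparison of ND13 with ND13(N51S) in 8 of the 12 cases. The medians of the list lay at 0.02 to 0.20, 0.03 to 0.16, 0.02 to 0.22, -0.08 to 0.15 and -0.10 to 0.07 in the 5 comparisons. The replicate block changed no adjusted call. Genes near background (Slc16a3, Eno2 and P4ha2) give no firm fold, and with 3 arrays in each group a p that misses the threshold does not show that a gene did not differ.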
